A study of Mus musculus with 16 samples.

Results

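The immediate early genes described here are 10 members of 3 transcription factor families: the EGR zinc finger factors Egr1, Egr2 and Egr3, the NR4A orphan nuclear receptors Nr4a1, Nr4a2 and Nr4a3, and the AP-1 subunits Fos, Fosb, Jun and Junb. They were taken by symbol out of 19938 genes measured on Affymetrix Mouse Gene 1.0 ST arrays, and each was represented by the only probe set that carries its symbol alone. RNA came from 2 sorted subsets of classical dendritic cells (DCs), CD24+ and CD172a+ (Sirpa+), of B6 mice that lacked the MHC class II transactivator Ciita (Ciita -/-, KO) or had both copies (Ciita +/+, WT). Every animal, WT included, carried a GFP allele of Zbtb46 (Zbtb46 GFP/+), a transcription factor gene of the classical DC lineage. The cultured cells came from bone marrow kept for 9 days in 5% Flt3l and then activated with gamma interferon, for 22 hours in one label field and 16 hours in another, followed by 4 hours of LPS. The spleen cells are labelled homeostatic. Each of the 8 groups (culture or spleen, CD24+ or CD172a+, KO or WT) held 2 arrays, and each of the 8 mice gave 1 CD24+ and 1 CD172a+ array. Ages are not given in the sources used here. Sampling from the animal, sorting, culture and activation all separate culture from spleen, and these cannot be told apart.

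Immediate early genes are transcribed within minutes of a signal, without new protein synthesis, because factors such as SRF and CREB already sit on their promoters and are switched on by MAP kinases and calcium signals. Their mRNAs are short-lived, so the pulse closes quickly, and their protein products go on to drive a later set of genes. In DCs they follow Toll-like receptor ligands such as LPS, and they also follow the handling of a tissue while cells are isolated.

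RefSeq promoter windows, from 250 bases before to 50 bases after the transcription start on build GRCm38.p6, were at hand for 8 of the 10 genes, and for Egr1 and Egr3 none was used. The short CREB site TGACG was found on either strand in 6 of these 8 windows (Nr4a1, Nr4a2, Nr4a3, Fos, Fosb and Junb), against 20.8% of 32851 mouse promoter windows of the same length. The stretches that hold it are shown 5′ to 3′ on the strand of the gene, since they let the members with large changes (Nr4a1, Nr4a2, Fos, Fosb) be read beside those with small ones (Nr4a3, Junb). Capitals mark TGACG or, where it lies on the other strand, CGTCA.
Nr4a1 (chr15:101266598-101266825, plus strand): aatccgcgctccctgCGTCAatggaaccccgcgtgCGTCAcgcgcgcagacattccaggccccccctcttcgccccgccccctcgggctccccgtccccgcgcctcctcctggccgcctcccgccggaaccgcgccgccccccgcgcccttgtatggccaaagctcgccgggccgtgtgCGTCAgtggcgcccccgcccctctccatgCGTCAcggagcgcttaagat
Nr4a2 (chr2:57124095-57124218, minus strand): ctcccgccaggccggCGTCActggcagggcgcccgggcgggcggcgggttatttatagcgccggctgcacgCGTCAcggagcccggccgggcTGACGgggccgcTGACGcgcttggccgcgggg
Nr4a3 (chr4:48045059-48045177, plus strand): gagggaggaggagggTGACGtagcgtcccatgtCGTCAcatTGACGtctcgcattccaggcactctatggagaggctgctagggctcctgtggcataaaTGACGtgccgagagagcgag
Fos (chr12:85473746-85473843, plus strand): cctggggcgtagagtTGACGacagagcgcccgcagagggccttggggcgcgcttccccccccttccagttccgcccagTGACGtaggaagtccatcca
Fosb (chr7:19310086-19310120, minus strand): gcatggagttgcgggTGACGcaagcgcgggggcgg
Junb (chr8:84978835-84978869, minus strand): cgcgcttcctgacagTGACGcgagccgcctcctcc
Nr4a1, Nr4a2 and Nr4a3, whose changes between culture and spleen differ widely below, each hold 4 copies. The EGR site GCGNGGGCG was found in Nr4a1, Nr4a2 and Fosb, 3 of 8 windows against 5.55% of all, without overlap with a TGACG. An NF-kB site, searched by its consensus, was found in Egr2, Nr4a1, Fos and Fosb, 4 of 8 against 8.46%. The full CREB site TGACGTCA, which contains TGACG, was in 0 of 8 against 1.79%, the AP-1 site TGANTCA in 0 of 8 against 7.81%, the NR4A site AAAGGTCA in 0 of 8 against 1.51% and the SRF-bound CArG box in 0 of 8 against 1.63%. A match here is a description of letters, and no match says only that these letters are not in this window.

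Levels are log2 signals minus the array's median over all tested genes, so 0 is the median gene of that array, and a difference of 1 is a doubling. Deposited array medians were 6.89 to 6.97 in culture and 7.37 to 7.39 in spleen. The labelled subsets were checked on 8 markers each. The cDC1 markers had list means of 3.35 to 3.77 in cultured CD24+ and 1.64 to 1.89 in cultured CD172a+ cells, and of 4.50 to 4.77 in spleen CD24+ and 0.68 to 0.87 in spleen CD172a+ cells. In culture 6 of the 8 were higher in CD24+ cells by the test below, against 11.6% of all genes. Irf8 averaged 6.52 in cultured CD24+ and 6.47 in cultured CD172a+ cells, and Batf3 was lower in cultured CD24+ cells, at 4.17 against 4.88. The cDC2 markers were at 2.63 to 2.74 in spleen CD172a+ cells but at 0.14 to 0.43 in cultured CD172a+ cells. There Sirpa, Irf4 and Itgam lay above the array median on average, and Cd4, Esam, Clec10a, Clec4a4 and Mgl2 lay below it. In CD24+ cells the cDC2 list means were -0.21 to -0.11 in spleen and -0.53 to -0.33 in culture. In culture only 4 of the 8 were lower in CD24+ cells and 0 higher, against 12.3% and 11.6% of all genes. The Ciita probe set read 1.20 to 2.81 in cultured CD24+ KO against 3.57 to 3.92 in WT and 0.20 to 1.41 in cultured CD172a+ KO against 3.24 to 3.66 in WT, and in spleen 3.51 to 3.91 in KO against 3.58 to 4.03 in WT. The exons deleted are not given in the sources used here, and no Ciita difference passed the test. H2-Eb1, a class II gene that Ciita drives, fell in KO in all 4 tissue and subset settings, with log2 changes of -5.53 to -1.89.

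In the activated cultures most of the set stood far below its spleen level. In CD24+ cells 8 of the 10 genes were lower in culture than in spleen and 1 was higher, while 29.5% of all tested genes passed the test as lower and 47.1% as higher. In CD172a+ cells 9 were lower and 0 higher, against 29.5% and 49.4% of all genes. The split over all genes depends on the scaling: as deposited, 65.3% were lower and 13.8% higher in CD24+ cells and 60.2% and 16.6% in CD172a+ cells, and after quantile normalization 33.8% and 40.3% in CD24+ and 32.6% and 43.0% in CD172a+ cells. Under both of these scalings 9 of the members were lower and 1 higher in CD24+ cells, and 10 were lower and 0 higher in CD172a+ cells. Because so many genes passed, the size of a change says more than its call: the median of the 10 changes was -2.02 in CD24+ and -3.36 in CD172a+ cells, against 0.13 and 0.15 over all genes. Calls are limma tests over the 16 arrays with Benjamini-Hochberg adjusted p under 0.05, and n is 4 arrays per tissue and subset. The arrays of culture and spleen did not overlap for 8 lower genes in CD24+ cells and for 8 in CD172a+ cells, where 26.6% and 27.6% of all genes were lower without overlap. The 1 gene higher without overlap, Nr4a3 in CD24+ cells, compares with 43.2% of all genes.

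**Figure D1:**
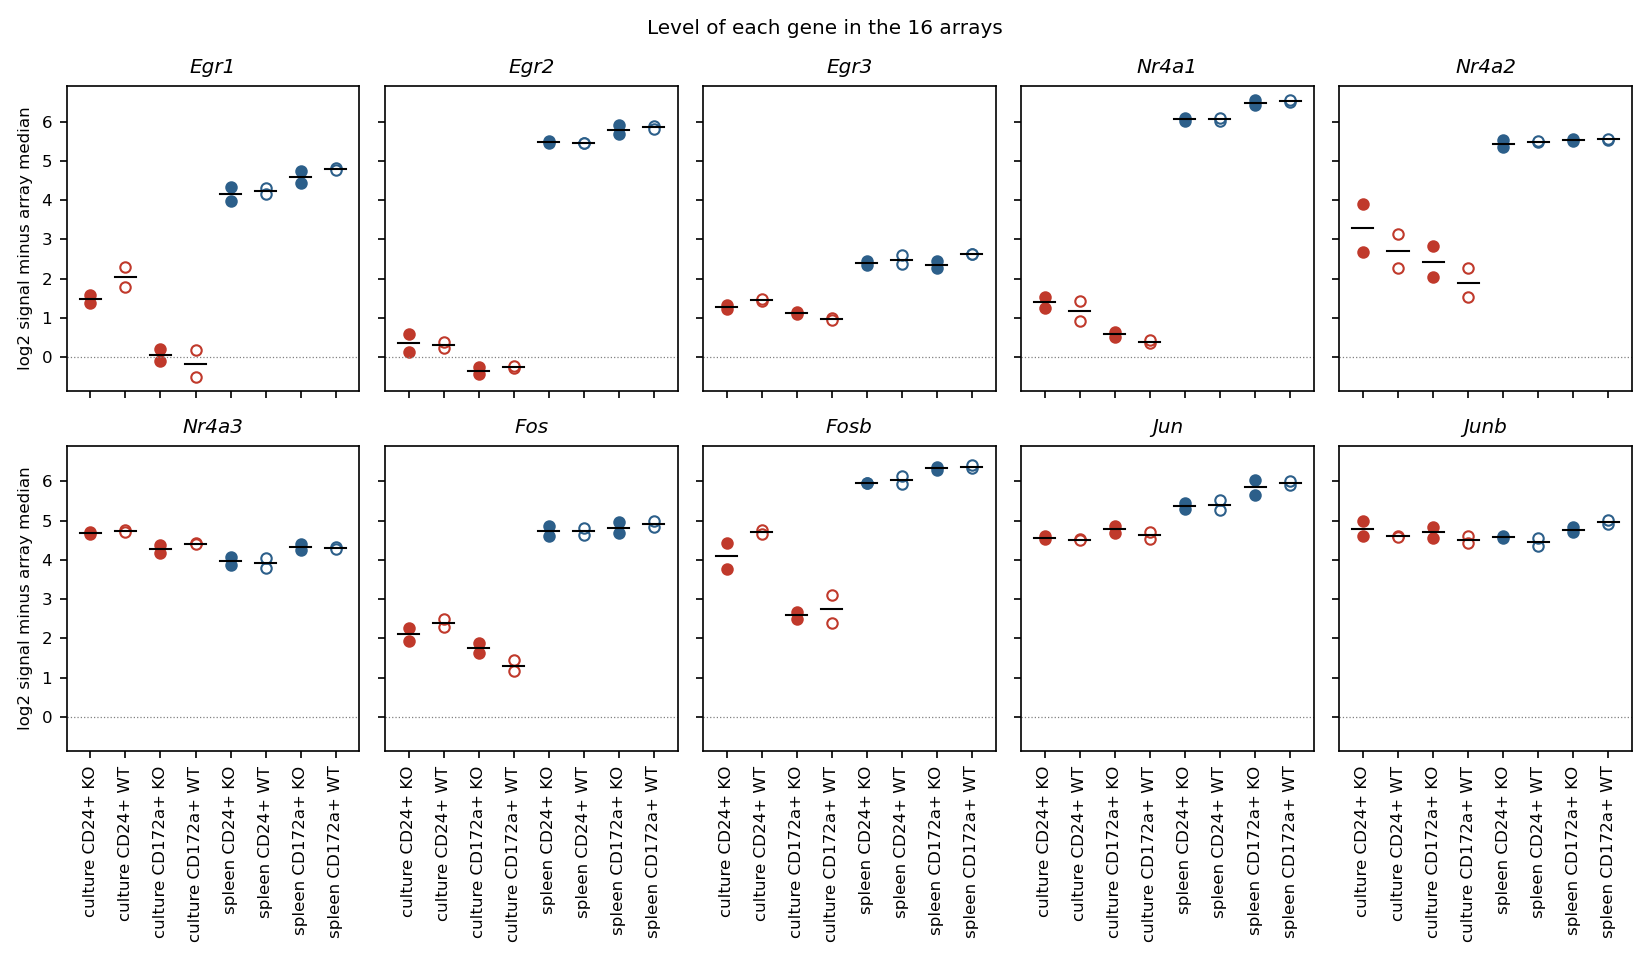
Levels of the 10 genes on each of the 16 arrays, in log2 units above the array's median gene; filled points are KO and open points WT arrays, bars are means of 2 arrays, and columns are the 8 groups. Egr2 and Nr4a1 read -0.43 to 1.53 in culture and 5.45 to 6.56 in spleen, while Nr4a3, Jun and Junb stay between 3.79 and 6.05.

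Egr2, an EGR factor known for restraining T cell activation, had, with Nr4a1, the largest measured changes of the set. It read 0.60 and 0.12 in cultured CD24+ KO arrays and 0.22 and 0.38 in WT, against 5.50 and 5.47 in spleen CD24+ KO arrays and 5.46 and 5.45 in WT. In cultured CD172a+ cells it read -0.43 and -0.26 in KO and -0.27 and -0.23 in WT, against 5.92 and 5.68 in spleen CD172a+ KO and 5.89 and 5.83 in WT. Every cultured array thus lay near or below the median gene, and every spleen array lay far above it with a narrow spread. The change was -5.14 ± 0.09 (SE) in CD24+ cells, with limma adjusted p = 1.64e-12. It was -6.13 ± 0.09 in CD172a+ cells, with limma adjusted p = 2.53e-13. In cultured CD172a+ cells Egr2 lay at the 42.6th percentile of all measured genes. No detection call was used here, so whether Egr2 in culture, Egr1 in cultured CD172a+ cells (48.6th percentile) or Nr4a1 there (60.5th) stood above background was not tested. Their changes are differences of measured signal, and no fold is given for them. From lowest to highest the levels ran from cultured CD172a+ through cultured CD24+ and spleen CD24+ to spleen CD172a+ cells, with KO and WT arrays intermixed in all of these but spleen CD24+, where they were 0.03 apart on average.

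Egr1, the founding EGR factor and a target of the ERK pathway, fell unequally in the subsets. Cultured CD24+ cells had 1.58 and 1.37 in KO and 1.79 and 2.30 in WT, against 4.33 and 3.99 in spleen CD24+ KO and 4.30 and 4.17 in WT. Cultured CD172a+ cells had 0.21 and -0.10 in KO and 0.19 and -0.52 in WT, against 4.75 and 4.43 in spleen CD172a+ KO and 4.83 and 4.77 in WT. The 2 cultured subsets did not overlap with each other or with spleen. The change was -2.44 ± 0.16 in CD24+ cells (5.43-fold lower, limma adjusted p = 4.93e-08) and -4.75 ± 0.16 in CD172a+ cells (limma adjusted p = 1.00e-10). Egr3, a relative of Egr2 with overlapping functions in T cells, changed less. It lay at 1.23 to 1.47 in cultured CD24+ and 0.95 to 1.15 in cultured CD172a+ cells, against 2.34 to 2.60 and 2.27 to 2.64 in the same subsets of spleen. Its change was -1.07 ± 0.06 in CD24+ and -1.45 ± 0.06 in CD172a+ cells, so all 3 EGR members fell in both subsets.

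Nr4a1 (Nur77), an orphan nuclear receptor that is used as a reporter of antigen receptor signalling, followed Egr2 closely. Cultured CD24+ cells had 1.53 and 1.26 in KO and 0.91 and 1.44 in WT, against 6.11 and 6.03 in spleen CD24+ KO and 6.01 and 6.11 in WT. Cultured CD172a+ cells had 0.52 and 0.65 in KO and 0.36 and 0.43 in WT, against 6.56 and 6.42 in spleen CD172a+ KO and 6.51 and 6.55 in WT. The 4 tissue and subset groups did not overlap. The change of Nr4a1 was -4.78 ± 0.10 in CD24+ cells (27.4-fold lower, limma adjusted p = 3.68e-12) and -6.02 ± 0.10 in CD172a+ cells (limma adjusted p = 3.92e-13). Its deposited mean in spleen CD172a+ cells was 13.88. The highest value of the whole table was 14.55, so these arrays read near the top of the scale. In the same cells the deposited means of Fosb, Jun and Egr2 were 13.73, 13.28 and 13.20. Compression of differences at such levels was not tested for any member.

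Nr4a2 (Nurr1), the NR4A member best known from dopaminergic neurons, was the most variable gene in culture. Cultured CD24+ cells had 2.69 and 3.90 in KO and 3.15 and 2.26 in WT, against 5.36 and 5.53 in spleen CD24+ KO and 5.48 and 5.51 in WT. Cultured CD172a+ cells had 2.04 and 2.83 in KO and 2.26 and 1.52 in WT, against 5.51 and 5.55 in spleen CD172a+ KO and 5.54 and 5.57 in WT. The cultured arrays followed the mouse: KO mouse 2 was highest and WT mouse 2 lowest in both subsets. The spread (SD) was 0.70 and 0.54 in cultured CD24+ and CD172a+ cells, against 0.07 and 0.02 in the same subsets of spleen. The change of Nr4a2 was -2.47 ± 0.27 in CD24+ and -3.38 ± 0.27 in CD172a+ cells (5.54-fold and 10.4-fold lower, limma adjusted p = 4.90e-06 and 2.59e-07).

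Nr4a3 (Nor1), a receptor with roles in DC migration in mouse, did not share this pattern. Cultured CD24+ cells had 4.72 and 4.67 in KO and 4.75 and 4.71 in WT, against 3.86 and 4.07 in spleen CD24+ KO and 3.79 and 4.06 in WT, so all 4 cultured arrays were above all 4 spleen arrays. Cultured CD172a+ cells had 4.37 and 4.17 in KO and 4.42 and 4.40 in WT, against 4.26 and 4.41 in spleen CD172a+ KO and 4.32 and 4.27 in WT, and these overlapped. Nr4a3 rose by 0.77 ± 0.07 in CD24+ cells (1.70-fold, limma adjusted p = 1.36e-06). In CD172a+ cells the difference was 0.03 ± 0.07 (limma adjusted p = 0.755), with a 95% interval from -0.13 to 0.19. That CD172a+ value depends on the scaling: it was -0.40 on the deposited values and -0.35 after quantile normalization, with limma adjusted p of 0.000264 and 0.00127, while the CD24+ change was 0.30 and 0.33, still called, with limma adjusted p of 0.00192 and 0.00206.

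Among the AP-1 subunits, the FOS members had larger changes than the JUN members. Fos, which needs a JUN partner to bind DNA, had 2.27 and 1.94 in cultured CD24+ KO and 2.30 and 2.49 in WT, against 4.86 and 4.61 in spleen CD24+ KO and 4.64 and 4.82 in WT. In cultured CD172a+ cells Fos had 1.62 and 1.88 in KO and 1.45 and 1.16 in WT, against 4.96 and 4.69 in spleen CD172a+ KO and 4.83 and 5.00 in WT. All cultured arrays lay below all spleen arrays, and the spleen arrays of the 2 subsets overlapped. The change of Fos was -2.49 ± 0.11 in CD24+ cells (5.60-fold lower) and -3.34 ± 0.11 in CD172a+ cells (10.2-fold lower), with limma adjusted p of 1.31e-09 and 6.94e-11.

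Fosb, a FOS relative whose protein also pairs with JUN proteins, fell less in CD24+ than in CD172a+ cells. It read 4.42 and 3.76 in cultured CD24+ KO and 4.76 and 4.65 in WT, against 5.96 and 5.95 in spleen CD24+ KO and 5.93 and 6.13 in WT. In cultured CD172a+ cells it read 2.68 and 2.50 in KO and 3.10 and 2.40 in WT, against 6.37 and 6.30 in spleen CD172a+ KO and 6.34 and 6.41 in WT. The 4 tissue and subset groups did not overlap. The change was -1.59 ± 0.15 in CD24+ cells (3.02-fold lower, limma adjusted p = 1.24e-06) and -3.69 ± 0.15 in CD172a+ cells (12.9-fold lower, limma adjusted p = 5.61e-10).

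Jun, the central AP-1 subunit that can act with itself or with FOS proteins, lay at 4.50 to 4.61 in cultured CD24+ and 4.53 to 4.86 in cultured CD172a+ cells, against 5.26 to 5.53 and 5.65 to 6.05 in the same subsets of spleen. Its change was -0.85 ± 0.09 in CD24+ cells and -1.21 ± 0.09 in CD172a+ cells (1.80-fold and 2.31-fold lower, limma adjusted p = 4.30e-06 and 1.63e-07). In CD24+ cells the Jun change was -1.31 on the deposited values and -1.35 after quantile normalization. Junb, an AP-1 subunit that can oppose Jun, had the smallest changes of the AP-1 genes. Cultured CD24+ arrays lay at 4.58 to 4.98 and cultured CD172a+ arrays at 4.43 to 4.84, against 4.35 to 4.61 and 4.71 to 5.03 in the same subsets of spleen, and both pairs overlapped. The difference was 0.18 ± 0.09 in CD24+ cells (limma adjusted p = 0.0944) and -0.26 ± 0.09 in CD172a+ cells (limma adjusted p = 0.0176). The CD172a+ value was -0.69 on deposited values and -0.68 after quantile normalization. The CD24+ sign turned to -0.29 on deposited values and -0.32 after quantile normalization, with limma adjusted p of 0.0150 and 0.0106. Without cultured CD24+ KO replicate 1 it was 0.27, with limma adjusted p = 0.0120. The CD172a+ call was lost without cultured CD172a+ KO replicate 1, cultured CD172a+ WT replicate 2, spleen CD172a+ KO replicate 1 or spleen CD172a+ WT replicate 2, with limma adjusted p of 0.0602 to 0.0808.

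**Figure D2:**
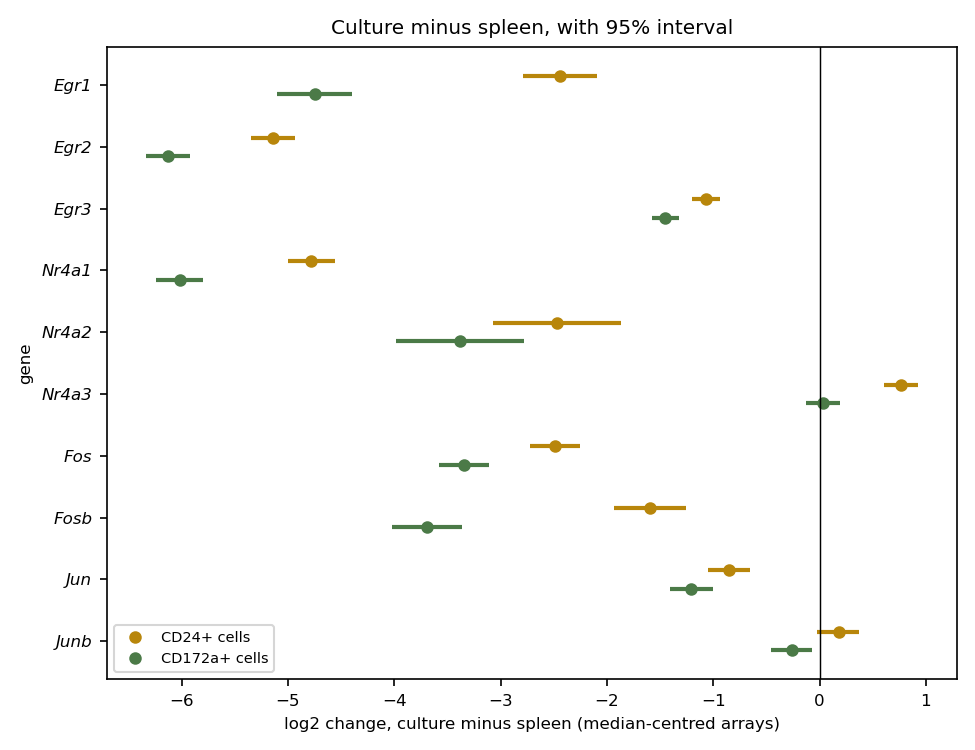
Change of each gene in culture relative to spleen, as the log2 difference with its 95% interval from the limma fit, in CD24+ and CD172a+ cells. The estimates run from -6.13 for Egr2 in CD172a+ cells to 0.77 for Nr4a3 in CD24+ cells, and 9 of the 10 genes have intervals below 0 in CD172a+ cells.

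Most of the heat shock genes, which rise when tissue is dissociated, were also lower in culture than in spleen. Of 9 measured, 6 fell and 3 rose in culture relative to spleen in CD24+ cells, and 6 fell and 0 rose in CD172a+ cells. The medians were -1.0 and -0.82. Over all genes 29.5% fell and 47.1% rose in CD24+ cells, and 29.5% and 49.4% in CD172a+ cells. On the deposited values 7 and 9 fell and 0 rose in CD24+ and CD172a+ cells, against 65.3% and 60.2% of all genes lower. After quantile normalization 7 and 8 fell and 0 rose, against 33.8% and 32.6% lower. Hspa1a, an inducible HSP70 gene, changed by -1.50 ± 0.24 in CD24+ and -2.20 ± 0.24 in CD172a+ cells. The cultured cells also differed in markers of other cell types: the 7 neutrophil markers had list means of -0.97 to -0.89 in cultured CD24+ cells, against -0.64 to 2.12 in spleen CD24+ cells, and all 7 were lower there. The 3 measured T cell markers were all lower in cultured CD24+ cells and 2 of them in cultured CD172a+ cells (medians -1.57 and -1.21), as were 4 and 3 of the 4 NK cell markers (medians -0.59 and -0.55). Of the 4 markers shared by DCs, Flt3, Itgax and Kmo were lower in culture in each subset, and Zbtb46 was higher in each. Itgax (CD11c), an integrin of DCs, averaged 1.40 in cultured CD172a+ cells, against 5.58 in spleen CD172a+ cells. Flt3 averaged 3.94 against 4.31 there. The 6 macrophage and monocyte markers had list means of 0.00 to 0.17 in cultured CD172a+ cells, against 1.19 to 1.65 in spleen CD172a+ cells. The list was split: 3 fell and 2 rose in CD172a+ cells (median -1.34), and 3 fell and 3 rose in CD24+ cells (median 0.15). The part of these in the members' differences was not tested, and in bulk RNA fewer cells of a type and less RNA per cell cannot be told apart. Genes of the LPS and gamma interferon response went the other way: 11 of 13 rose and 0 fell in CD24+ cells, and 11 rose and 1 fell in CD172a+ cells. Il6, a cytokine gene induced by LPS, was higher in culture by 6.27 ± 0.13 and 6.93 ± 0.13 in CD24+ and CD172a+ cells.

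Most of the set was higher in CD24+ than in CD172a+ cells of culture and lower in CD24+ cells of spleen, while Jun was the lower one in CD24+ cells of all 8 mice. In culture 8 of the 10 genes were higher in CD24+ than in CD172a+ cells and 0 were lower, against 11.6% and 12.3% of all genes. In spleen 0 were higher and 6 were lower, against 13.8% and 14.3% of all genes. The subset difference in culture minus that in spleen was above 0 and called for 8 genes and below 0 for 0, against 13.4% and 12.8% of all genes. The median difference between CD24+ and CD172a+ cells was 0.68 in culture and -0.36 in spleen over the 10 genes, against -0.01 and 0.01 over all genes. The arrays of the subsets did not overlap for 7 genes in culture, all higher in CD24+ cells, and for 7 in spleen, all lower, where 10.5% and 16.1% of all genes did so.

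In culture Egr1 and Fosb had the largest subset differences. With the levels given above, Egr1 was 1.81 ± 0.16 higher in CD24+ than in CD172a+ cells (limma adjusted p = 8.09e-06) and Fosb 1.73 ± 0.15 higher (3.32-fold, limma adjusted p = 7.11e-06). Within single mice the Egr1 difference was 1.37 to 2.82 and the Fosb difference 1.26 to 2.25. Nr4a1 was higher by 0.80 ± 0.10, Fos by 0.72 ± 0.11, Egr2 by 0.63 ± 0.09, Nr4a3 by 0.37 ± 0.07 and Egr3 by 0.32 ± 0.06, with limma adjusted p of 0.000117 to 0.00258. Each of these 7 genes was higher in the CD24+ array of 4 of 4 cultured mice. The share of all genes with the same sign in 4 of 4 mice was not computed. Nr4a2 was higher by 0.84 ± 0.27 (limma adjusted p = 0.0438), but its call was lost in 12 of 16 fits that each left out 1 array. It was also lost after quantile normalization (0.70, limma adjusted p = 0.0666), with all probe sets tested (limma adjusted p = 0.0537), with cultured arrays alone (limma adjusted p = 0.175) and with WT arrays alone (limma adjusted p = 0.0826), while the mouse as a replicate block gave 0.84 ± 0.07 (limma adjusted p = 5.01e-05). Among the fits that left out 1 array, those were the fits without any 1 of the 8 spleen arrays, where the estimate stayed at 0.84, and without cultured CD172a+ KO replicate 1, cultured CD172a+ WT replicate 2, cultured CD24+ KO replicate 2 or cultured CD24+ WT replicate 1. The limma adjusted p was 0.0592 to 0.170 in these, and the estimate 0.54 without cultured CD24+ KO replicate 2. Within each of the 4 cultured mice, Nr4a2 was 0.65 to 1.07 higher in CD24+ cells, a narrower range than that of either subset's levels. Jun was -0.16 ± 0.09 (limma adjusted p = 0.268), with its CD24+ array lower in 4 of 4 mice, and Junb 0.09 ± 0.09 (limma adjusted p = 0.590).

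In spleen every called difference was below 0, that is lower in CD24+ cells. The values of Jun and Junb were farther from 0 than in culture, and that of Nr4a3 was as far. The difference between CD24+ and CD172a+ cells was -0.52 ± 0.09 for Jun (limma adjusted p = 0.00100), with 5.46 and 5.30 in CD24+ KO and 5.26 and 5.53 in WT, against 6.05 and 5.65 in CD172a+ KO and 5.92 and 6.02 in WT. It was -0.45 ± 0.10 for Nr4a1 (limma adjusted p = 0.00502), -0.37 ± 0.07 for Nr4a3 (limma adjusted p = 0.00229) and -0.36 ± 0.09 for Egr2 (limma adjusted p = 0.0124), all lower in CD24+ cells. The arrays of the subsets did not overlap for any of these 4 genes. Junb had -0.35 ± 0.09 (limma adjusted p = 0.0112) and Egr1 -0.50 ± 0.16 (limma adjusted p = 0.0376). Fosb had -0.36 ± 0.15 (limma adjusted p = 0.101), and with the mouse as a replicate block its difference was -0.36 ± 0.10 (limma adjusted p = 0.0274). With the spleen arrays fitted alone it was -0.36 ± 0.06 (limma adjusted p = 0.00122), and its spleen arrays did not overlap between the subsets. The values of Fos, Nr4a2 and Egr3 were -0.14, -0.08 and -0.06, with limma adjusted p of 0.421, 0.884 and 0.551. Within mice, the CD24+ array was the lower one in 4 of 4 for 9 of the genes, and for Egr3 in 2 of 4. The share of all genes lower in 4 of 4 was not computed, and for Nr4a2 the differences were only -0.15 to -0.02.

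Some spleen calls were lost when a single array was left out, though not always with a smaller estimate. Where the Egr1 call was lost in this way, its estimate was -0.53 to -0.41, against -0.50 with all arrays. The Egr1 call was lost without spleen CD24+ KO replicate 2, either spleen CD24+ WT array, spleen CD172a+ KO replicate 1 or either spleen CD172a+ WT array, with limma adjusted p of 0.0675 to 0.138. Egr2 lost its call without spleen CD172a+ KO replicate 1 (limma adjusted p = 0.0597) and Junb without spleen CD24+ WT replicate 1 (limma adjusted p = 0.0526), both at -0.30. Without spleen CD172a+ KO replicate 1, and likewise without spleen CD24+ WT replicate 1, 4 of the 10 genes were called lower in place of 6. Fosb gained a call without cultured CD24+ KO replicate 1 or 2 or cultured CD172a+ WT replicate 1 or 2, with the estimate at -0.36 and limma adjusted p of 0.0331 to 0.0421. In WT mice alone, Egr1 (-0.56, limma adjusted p = 0.120) and Nr4a1 (-0.47, limma adjusted p = 0.0508) did not pass.

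**Figure D3:**
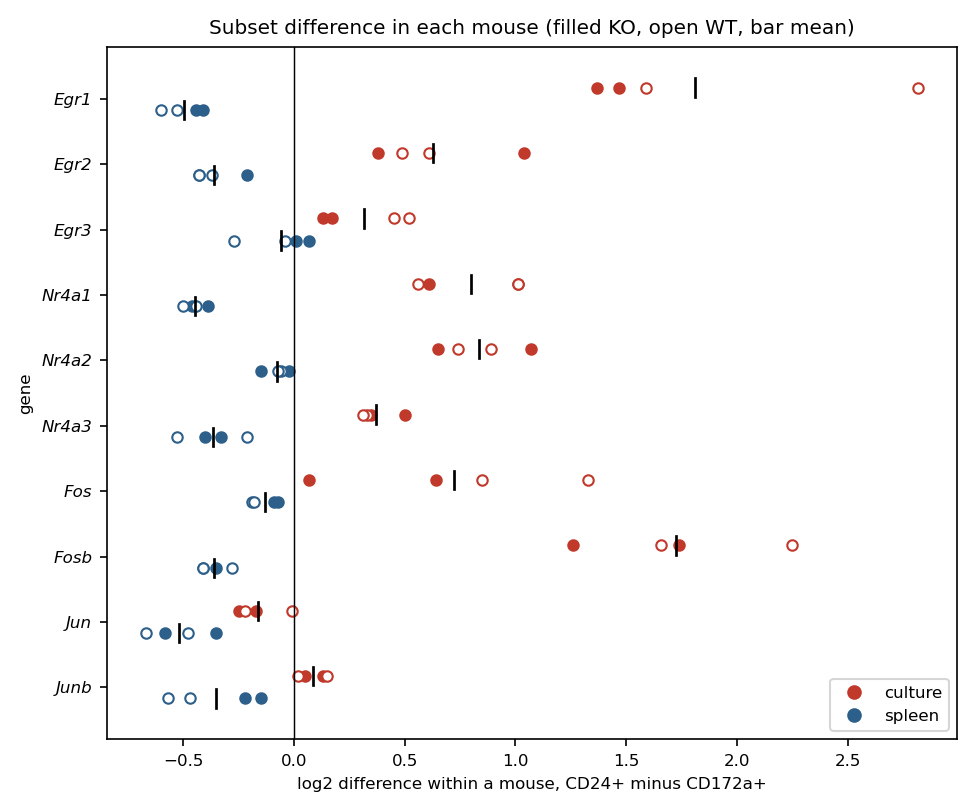
Level in the CD24+ array minus that in the CD172a+ array of the same mouse, in log2 units, for each of the 10 genes; points are the 4 cultured and the 4 spleen mice, KO and WT. Cultured mice lie above 0 for every gene but Jun, and spleen mice lie below 0 for every gene but Egr3.

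The change of the subset difference between culture and spleen was largest for Egr1, at 2.31 ± 0.23 (limma adjusted p = 1.39e-05), and for Fosb, at 2.09 ± 0.21 (limma adjusted p = 1.87e-05). It was 1.24 ± 0.14 for Nr4a1, 0.99 ± 0.13 for Egr2, 0.86 ± 0.15 for Fos, 0.74 ± 0.10 for Nr4a3 and 0.38 ± 0.09 for Egr3, with limma adjusted p of 4.46e-05 to 0.00571. The same value is the change between culture and spleen in CD24+ cells minus that in CD172a+ cells. For the 8 genes other than Egr3 and Jun, every mouse in culture had the higher level in its CD24+ array, and every mouse in spleen the lower. Some of these differences were small, at 0.02 to 0.15 for Junb in culture and -0.15 to -0.02 for Nr4a2 in spleen. The share of all genes with this pattern was not computed. Junb had 0.44 ± 0.13 (limma adjusted p = 0.0231), and this call was lost after quantile normalization (0.36, limma adjusted p = 0.0766). It was also lost without cultured CD172a+ KO replicate 1, cultured CD172a+ WT replicate 2, spleen CD172a+ KO replicate 1, spleen CD172a+ WT replicate 2, spleen CD24+ KO replicate 2 or spleen CD24+ WT replicate 1, with limma adjusted p of 0.0520 to 0.0595. Nr4a2 had 0.91 ± 0.39 (limma adjusted p = 0.110) and Jun 0.36 ± 0.13 (limma adjusted p = 0.0649). With the mouse as a replicate block the estimates were 0.91 ± 0.10 for Nr4a2 (limma adjusted p = 0.000202) and 0.36 ± 0.09 for Jun (limma adjusted p = 0.0181), and then all 10 genes passed. Nr4a2 also passed without cultured CD24+ KO replicate 1 (1.22, limma adjusted p = 0.0114), and Jun without spleen CD172a+ KO replicate 2 (0.46, limma adjusted p = 0.0140) or spleen CD24+ WT replicate 2 (0.43, limma adjusted p = 0.0348).

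Markers of other cells also differed between the spleen subsets, some lower and some higher in CD24+ cells. The macrophage and monocyte markers had list means of 0.00 to 0.21 in spleen CD24+ cells, against 1.19 to 1.65 in spleen CD172a+ cells. Of these 6 markers, 4 were lower and 0 higher in spleen CD24+ cells (median -0.6), against 14.3% and 13.8% of all genes. The sizes were unequal: Adgre1 (F4/80) read -0.67 to -0.47 against 3.48 to 3.68, Csf1r averaged 1.01 against 3.01 and Fcgr1 -0.61 against -0.18. The neutrophil markers were at 2.12 in spleen CD24+ KO replicate 2 and at -0.64 to 0.50 in the other spleen CD24+ arrays, against -0.80 to -0.24 in spleen CD172a+ cells. Without that array 5 genes were called lower in spleen and 7 higher in the difference between tissues. In culture 1 of the 6 macrophage and monocyte markers was called higher and 1 lower in CD24+ than in CD172a+ cells, and 0 of the 7 neutrophil markers in either direction. Over all genes 11.6% were called higher and 12.3% lower. Vcam1, an adhesion molecule of macrophages and stroma, averaged 0.46 in cultured CD24+ against 1.45 in cultured CD172a+ cells. Fcgr1, of the same list, went the other way, at 0.43 against 0.03. The median of the 6 differences in culture was -0.01. In culture the macrophage list means were -0.07 to -0.02 in CD24+ and 0.00 to 0.17 in CD172a+ cells, and the neutrophil list means -0.97 to -0.89 in CD24+ and -0.90 to -0.77 in CD172a+ cells. Of the 4 NK cell markers, 3 were higher in CD24+ cells of spleen and 0 in those of culture, against 13.8% and 11.6% of all genes. The part of these cell types in the members' differences was not tested.

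Loss of Ciita gave no called change in the set. In each of the 4 tissue and subset settings, 0 of the 10 genes passed the test between KO and WT, where 0.0903% of all genes passed in cultured CD24+ cells, 0.0552% in cultured CD172a+ cells, 0.0602% in spleen CD24+ cells and 0.0802% in spleen CD172a+ cells. At an unadjusted p under 0.05, which 7.58% and 6.25% of all genes met in cultured CD24+ and CD172a+ cells and 4.61% and 5.46% in spleen CD24+ and CD172a+ cells, 4 of the 40 values passed: Fosb (-0.61 ± 0.21, limma adjusted p = 0.545) and Egr1 (-0.57 ± 0.23, limma adjusted p = 0.601) in cultured CD24+ cells, Fos (0.45 ± 0.15, limma adjusted p = 0.662) in cultured CD172a+ cells and Egr3 (-0.28 ± 0.09, limma adjusted p = 0.607) in spleen CD172a+ cells. Differences between KO and WT ran from -0.61 to 0.59 in culture and from -0.28 to 0.13 in spleen, and their 95% intervals reached from -1.08 to 1.43 in culture and from -0.89 to 0.82 in spleen. A p that misses the threshold does not show that KO and WT were alike, and the intervals bound what 2 arrays per group leave possible. Without cultured CD24+ KO replicate 1, which leaves replicate 2 as the lone KO array and assumes that it varies like the other groups, Fosb was -0.94 ± 0.20 with limma adjusted p = 0.0185, and 1221 genes passed in place of 18. That remaining array had the lowest Fosb (3.76), Egr1 (1.37) and Xcr1 (2.64) of the cultured CD24+ arrays, and the highest Nr4a2 (3.90) and Junb (4.98).

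The wider families were mixed. Of 12 other EGR, NR4A and AP-1 related genes, 8 rose and 3 fell in culture in CD24+ cells, against 47.1% and 29.5% of all genes. In CD172a+ cells 6 rose and 4 fell, against 49.4% and 29.5%. The medians were 0.32 and 0.10. These medians turned to -0.14 and -0.33 on the deposited values, with 2 higher and 6 lower in each subset. They were 0.37 and 0.19 after quantile normalization, and the shares of all genes under both scalings are given above. Fosl2 (Fra-2), a FOS relative, changed by -2.85 ± 0.15 and -3.48 ± 0.15 in CD24+ and CD172a+ cells. Batf, an AP-1 partner of IRF4 and IRF8, was higher by 2.39 ± 0.25 and 0.96 ± 0.25, and its relative Batf2 by 1.40 ± 0.09 and 1.61 ± 0.09. The CD172a+ value of Batf was 0.54 on the deposited values, with limma adjusted p = 0.0647, and the CD24+ value of Batf2 was 0.93, still called. Atf3, a stress-induced ATF factor, fell by 1.53 ± 0.11 in CD172a+ cells, and its subset difference in culture was 0.89 ± 0.11. Jdp2, a partner that represses AP-1, was higher in CD24+ than in CD172a+ cells by 1.90 ± 0.25 in culture and 0.86 ± 0.25 in spleen.

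Of 20 immediate early genes outside these families, 7 rose and 10 fell in culture in CD24+ cells, against 47.1% and 29.5% of all genes. In CD172a+ cells 4 rose and 12 fell, against 49.4% and 29.5%, and the medians were -0.38 and -0.89. On the deposited values 4 rose and 15 fell in each subset. There 13.8% of all genes rose and 65.3% fell in CD24+ cells, and 16.6% and 60.2% in CD172a+ cells. After quantile normalization 4 rose in each subset, while 12 fell in CD24+ and 13 in CD172a+ cells. Of all genes 40.3% then rose and 33.8% fell in CD24+ cells, and 43.0% and 32.6% in CD172a+ cells. Plk3, a stress kinase, changed by -3.63 ± 0.08 and -4.28 ± 0.08 in CD24+ and CD172a+ cells. Klf4, a zinc finger factor of myeloid cells, changed by -2.01 ± 0.09 and -3.06 ± 0.09, and Btg2, an antiproliferative gene, changed by -3.18 ± 0.10 in CD172a+ cells. Gadd45b, a stress response gene downstream of NF-kB, rose by 2.06 ± 0.05 and Nfkbiz, an atypical IkB protein needed for secondary LPS genes, by 1.88 ± 0.08 in CD24+ cells. Between the subsets of culture, 8 of these 20 were higher and 1 lower in CD24+ cells, against 11.6% and 12.3% of all genes. In spleen 0 were higher and 11 lower, against 13.8% and 14.3%. The subset difference in culture minus that in spleen was called above 0 for 14 and below 0 for 1, against 13.4% and 12.8%. Myc was 1.23 ± 0.25 and Btg2 1.11 ± 0.10 higher in CD24+ cells of culture, while the subset difference of Klf4 in spleen was -1.17 ± 0.09.

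**Figure D4:**
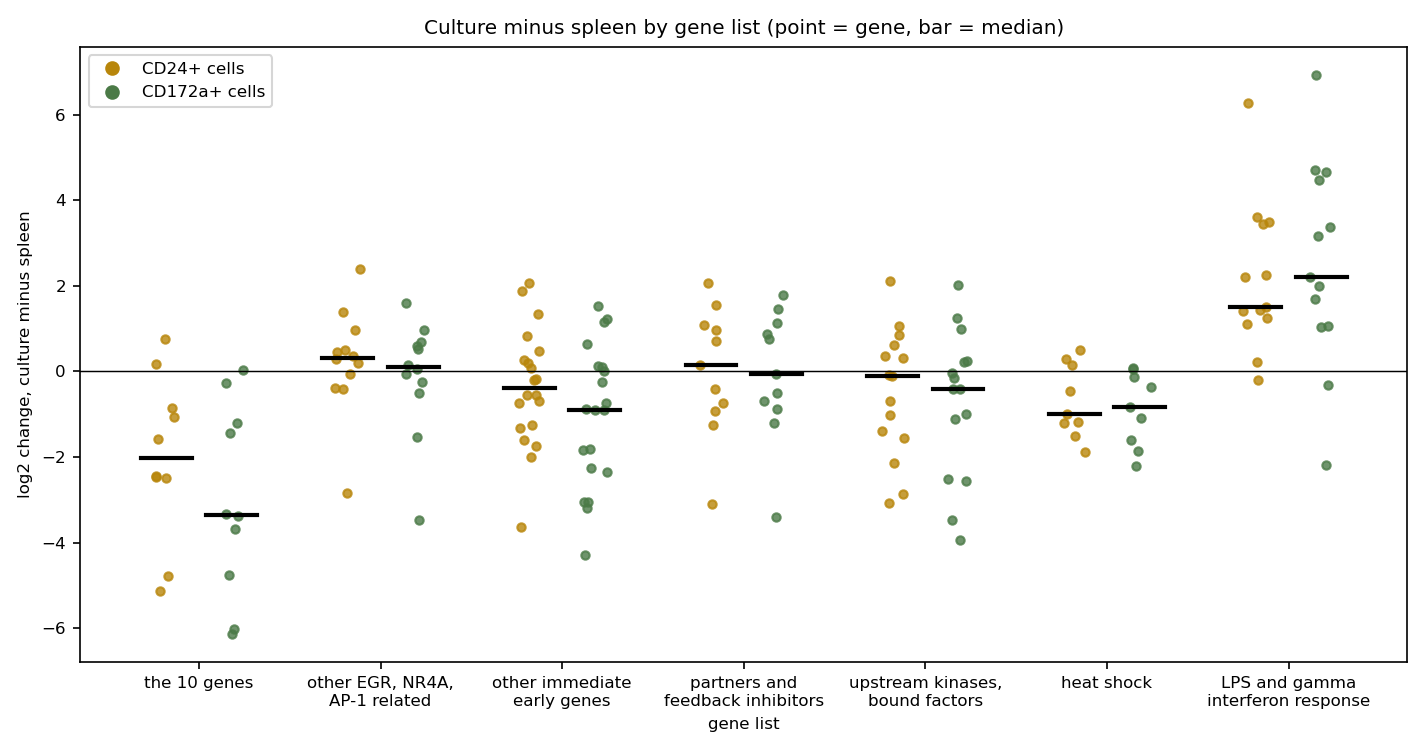
Change in culture relative to spleen, in log2 units, for the members of each gene list in CD24+ and CD172a+ cells; points are genes and bars are list medians. The 10 genes have medians of -2.02 and -3.36, and the LPS and gamma interferon response genes have medians of 1.51 and 2.20.

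Genes that act on or before the set were mixed. Over all genes 47.1% rose and 29.5% fell in culture in CD24+ cells, and 49.4% and 29.5% in CD172a+ cells. Of 11 partners and feedback inhibitors, 5 rose and 5 fell in culture in each subset. Their medians, 0.15 and -0.05 in CD24+ and CD172a+ cells, were -0.31 and -0.47 as deposited and -0.09 and 0.05 after quantile normalization. Dusp6, a phosphatase of ERK, changed by -3.10 ± 0.11 and -3.41 ± 0.11 in CD24+ and CD172a+ cells, while Spred1, an inhibitor of the same pathway upstream of RAF, was higher by 2.06 ± 0.09 and 1.79 ± 0.09. Nab2, a corepressor that binds EGR proteins, was higher in CD24+ than in CD172a+ cells by 1.10 ± 0.09 in culture and 0.90 ± 0.09 in spleen. Of 15 measured kinases and promoter-bound factors, 6 rose and 7 fell in CD24+ cells and 4 rose and 8 fell in CD172a+ cells. On the deposited values these counts were 4 and 10 in CD24+ and 3 and 11 in CD172a+ cells. There 13.8% of all genes rose and 65.3% fell in CD24+ cells, and 16.6% and 60.2% in CD172a+ cells. After quantile normalization the counts were 5 and 8 in CD24+ and 4 and 9 in CD172a+ cells. Of all genes 40.3% then rose and 33.8% fell in CD24+ cells, and 43.0% and 32.6% in CD172a+ cells. Mef2c and Mef2d, calcium-responsive factors that can act on the Nr4a1 promoter, changed by -2.87 ± 0.09 and -2.15 ± 0.07 in CD24+ and by -3.95 ± 0.09 and -2.51 ± 0.07 in CD172a+ cells. Mapk14 (p38 alpha) changed by -3.07 ± 0.12 and -3.46 ± 0.12, and Elk3, an SRF partner, by -2.55 ± 0.09 in CD172a+ cells.

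Over the 16 arrays, which share the split between culture and spleen, the levels of 8 members ran together. Egr1, Egr2, Egr3, Nr4a1, Nr4a2, Fos, Fosb and Jun had Pearson r of 0.795 to 0.999 with each other. Nr4a3 had -0.638 to -0.376 with these 8, and Junb had 0.156 to 0.398 with them. Since the arrays share the tissue difference, these values are a description and carry no test. The genes with the most alike patterns outside the set were Plk3 (r = 0.999) and Adgre5 (r = 0.999) for Egr2, Ptpre (r = 0.998) and Gm15441 (r = 0.997) for Nr4a1, Ptpre (r = 0.995) and Polg2 (r = 0.994) for Fos, Nedd4 (r = 0.994) and Slc46a3 (r = 0.993) for Fosb, and Ier2 (r = 0.992) and Btg2 (r = 0.992) for Egr1. For the other members they were Olfml3 (r = 0.989) and Cbl (r = 0.987) for Egr3, Galm (r = 0.987) and Atg2a (r = 0.986) for Jun, Dnajc4 (r = 0.982) and Fam120a (r = 0.979) for Nr4a2, Akap13 (r = 0.967) and Inpp5f (r = 0.959) for Nr4a3, and Gga2 (r = 0.860) and Wbp2 (r = 0.837) for Junb.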

How the data were processed

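Total RNA of sorted DCs was labelled and hybridized to 16 arrays (8 mice, 2 subsets each). The authors deposited 1 log2 signal per probe set, a unit read from the values; details of background correction, normalization and summarization are not given in the sources used here. Of 30177 probe sets, 21789 had 1 symbol, 1621 several and 6767 none. For the 999 genes with over 1 probe set the one with the highest mean was used, which left 19938 genes. Each array was centred on its median over these genes. After centring, the median gene changed by 0.13 and 0.15 between culture and spleen in CD24+ and CD172a+ cells, against -0.34 and -0.28 as deposited.

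Tests used limma 3.58.1 in R 4.3.3, with 8 group means over 16 arrays (8 residual and 3.75 prior degrees of freedom), 2-sided, Benjamini-Hochberg adjusted over all genes, threshold 0.05. Residual correlation of a mouse's 2 arrays across genes was 0.393, 0.205, 0.202 and -0.0957 in culture KO, culture WT, spleen KO and spleen WT mice; the pairing comes from the labels, which name the mouse. KO and WT mice are different animals that share only replicate numbers. Alternatives were deposited values, quantile normalization, blocks, the mean over probe sets, all probe sets, no genes in the lowest 25% of signal, an intensity trend, arrays of 1 tissue or subset alone, WT arrays alone, and each array left out. On simulated data with 19938 genes and independent normal noise, changes of 0.5, 1, 2 and 4 were added to some genes. Those of 0.5 were recovered in 84% for culture against spleen in CD24+ cells and 50% for KO against WT in cultured CD24+ cells. Recovery depends on how many genes change, and in the deposited data 18 genes passed for that KO comparison. These shares are thus not the power of the real tests.

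All 10 members are named; of each list the members with the largest called changes, up to 4 per comparison, and for each member the 2 genes of highest r. Members and lists were chosen with earlier results of these data known. Promoters are from RefSeq on GRCm38.p6, 8 of 10 members matched, the most upstream start where a gene had several. Precision is limited by the number of arrays, and coordinates are those of the RefSeq table alone.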

Additional observations from a re-analysis of the deposited data

Results flagged for a closer look

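For 8 genes the difference between CD24+ and CD172a+ cells itself differed between culture and spleen, by the limma test of that difference over the 16 arrays. Egr1 stood out with a value of 2.31 (culture minus spleen, log2), from 1.81 in culture and -0.50 in spleen, and Fosb with 2.09, from 1.73 and -0.36. The value was 1.24 for Nr4a1, 0.99 for Egr2, 0.86 for Fos, 0.74 for Nr4a3, 0.44 for Junb and 0.38 for Egr3. Of these 8 genes, Egr1, Egr2, Nr4a1 and Nr4a3 passed the test in both tissues with opposite signs. Fosb, Fos and Egr3 passed in culture but not in spleen, and Junb in spleen but not in culture. With the mouse as a replicate block, Fosb passed in spleen too (-0.36 ± 0.10, limma adjusted p = 0.0274). The macrophage and monocyte markers had list means of 0.00 to 0.21 in spleen CD24+ and 1.19 to 1.65 in spleen CD172a+ cells. Of these 6 markers, 4 were lower and 0 higher in spleen CD24+ cells, against 14.3% and 13.8% of all genes. Their part was not tested.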

How the results depend on the processing

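Of 2180 recomputed member values, 2126 kept their call or stayed uncalled, 37 lost a call, 13 gained one and 4 gained one with the sign reversed. Signs were not compared where neither value was called, and some of these turned. An example is Egr1 between KO and WT in cultured CD172a+ cells, at -0.14 to 0.57 with single arrays left out. The reversals concern culture against spleen under other scalings. Junb in CD24+ cells was -0.29 as deposited and -0.32 after quantile normalization, against 0.18 centred, and Nr4a3 in CD172a+ cells was -0.40 and -0.35, against 0.03. Centring moves the median gene by 0.47 and 0.43 relative to deposited values in CD24+ and CD172a+ cells, by construction.

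Leaving out single arrays, the count of members called was 9 to 10 and 8 to 9 for culture against spleen in CD24+ and CD172a+ cells, 7 to 8 for the subset difference in culture, 4 to 7 in spleen and 7 to 9 for the difference between them. Of all 19938 genes the same fits called 14501 to 15204, 15010 to 16024, 3665 to 5518, 4640 to 6325 and 4525 to 5991. For KO against WT it was 0 to 1 in cultured CD24+ cells and 0 to 0 in the other 3 settings. With the mouse as a replicate block, the 3 subset counts were 8 in culture, 7 in spleen and 10 for the difference between them, and no call was lost; 5117, 5940 and 5632 of all genes were called, against 4754, 5590 and 5237 without the block. A replicate block by number between KO and WT, which are different animals, called 0 members, and 3, 7, 0 and 9 of all genes in cultured CD24+, cultured CD172a+, spleen CD24+ and spleen CD172a+ cells, against 18, 11, 12 and 16 without it. All probe sets gave 20 in spleen CD24+ cells, and arrays of 1 tissue or subset alone gave 3 and 7 in cultured CD24+ and CD172a+ cells. Single arrays moved these counts to 10 to 1221, 8 to 40, 1 to 33 and 10 to 20. The cause was not tested. No mouse block was possible for culture against spleen, since no mouse gave both.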
